A study of Rattus norvegicus with 16 samples.

Results

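The genes that build and control the machinery of synaptic vesicle release were followed in the hypothalamus of 16 male Wistar rats aged 7 to 8 weeks. Members were all probe sets with a single gene symbol from the SNAP, syntaxin (Stx), syntaxin-binding (Stxbp), VAMP, synaptotagmin (Syt), complexin (Cplx), synapsin (Syn), SV2 and RIM (Rims) families, matched by symbol alone. This gave 85 probe sets of 55 genes, out of 31042 probe sets in all. There were 4 rats per group: control rats had neither restraint nor odour, stress rats were restrained for 2 h, linalool rats inhaled (R)-(-)-linalool for 2 h, and the last group had both together, also for 2 h. The odorant is a scented monoterpene alcohol of lavender and other plants, and (R)-(-) names one of its mirror-image forms. All groups shared the strain, the sex, the age and a lit phase from 9 to 21 h, and each rat gave 1 single-colour Affymetrix array of whole hypothalamic RNA.

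Neurotransmitter and neuropeptide release rests on SNARE proteins: a VAMP on the vesicle zips together with a syntaxin and a SNAP protein on the target membrane and draws the membranes into fusion. Syntaxin-binding proteins guide the assembly, complexins clamp and then help the nearly zipped complex, and synaptotagmins sense calcium or regulate the step. Synapsins hold vesicles in reserve, SV2 proteins sit in the vesicle membrane, and RIM proteins anchor vesicles and calcium channels at the active zone. In the hypothalamus the same families serve both fast synapses and the release of hormones from dense-core vesicles, and some members work in all cells, in endosomes, lysosomes or the Golgi. Snap91, which matched the symbol rule, encodes the clathrin adaptor AP180 and is no SNARE.

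Values are log2(signal + 16) after quantile normalization between arrays, so a signal of 0 would sit at 4 and changes of dim probe sets are understated. A probe set was tested where its mean over all rats lay at or above the 40th percentile, 6.26 on this scale. Of the members, 61 probe sets of 43 genes passed and 24 did not. The lowest member inside was Stxbp2 at 6.42 and the highest outside was Rims3 at 6.21. A change is a difference of group means on this scale, a call is an adjusted p under 0.05, and every adjusted p is limma's with Benjamini-Hochberg adjustment over all 18625 probe sets tested. Because a probe set's brightness depends on its probes, levels of different genes are not ranked here. RNA came from whole tissue, so fewer cells of a type and less RNA per cell cannot be told apart.

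In these rats 3 members were called: complexin 2 was higher with linalool in restrained rats, SNAP-23 was higher in restrained rats, and 1 of the probe sets of synaptotagmin 4 was higher in rats that inhaled linalool. The bases before the RefSeq start of these genes, and of Sv2c, a dim member described further on, are shown because they are the members the results turn on. Each run holds the 250 bases upstream of the start, read 5′ to 3′ on the strand of the gene, in build GRCr8. The runs are chr17:10236754-10237003 (minus strand) for Cplx2, chr3:127967636-127967885 (plus) for Snap23, chr18:23320864-23321113 (minus) for Syt4 and chr2:29163169-29163418 (minus) for Sv2c. Capitals mark matches to the motifs searched.
Cplx2: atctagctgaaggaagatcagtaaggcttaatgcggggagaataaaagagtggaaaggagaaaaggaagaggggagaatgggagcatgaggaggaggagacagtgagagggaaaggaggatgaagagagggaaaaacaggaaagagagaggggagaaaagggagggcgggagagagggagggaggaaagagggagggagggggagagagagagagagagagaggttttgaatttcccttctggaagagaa
Snap23: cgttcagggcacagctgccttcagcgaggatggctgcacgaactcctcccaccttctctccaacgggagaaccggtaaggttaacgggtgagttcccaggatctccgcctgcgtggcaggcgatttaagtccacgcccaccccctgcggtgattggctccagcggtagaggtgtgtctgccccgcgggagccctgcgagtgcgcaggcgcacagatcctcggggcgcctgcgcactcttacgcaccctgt
Syt4: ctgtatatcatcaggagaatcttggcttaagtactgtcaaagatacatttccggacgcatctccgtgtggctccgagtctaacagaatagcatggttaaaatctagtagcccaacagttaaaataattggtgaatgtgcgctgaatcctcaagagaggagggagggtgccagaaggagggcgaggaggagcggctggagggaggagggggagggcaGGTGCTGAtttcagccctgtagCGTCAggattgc
Sv2c: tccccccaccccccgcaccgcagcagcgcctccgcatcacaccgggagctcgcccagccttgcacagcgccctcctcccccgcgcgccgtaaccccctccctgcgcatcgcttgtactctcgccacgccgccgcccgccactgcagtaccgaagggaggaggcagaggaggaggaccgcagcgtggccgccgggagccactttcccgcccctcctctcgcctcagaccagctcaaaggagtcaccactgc

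The motifs were searched on both strands of these 250 bases. In Syt4 the capitals mark GGTGCTGA, 34 bases before the start, which is the other strand of TCAGCACC, the left part of the RE1 element that the repressor REST binds. The second match is CGTCA, 12 bases before the start, the other strand of TGACG, the cAMP response half-site. The runs of Cplx2, Snap23 and Sv2c held none of the motifs searched. TCAGCACC stood in 1.33% and TGACG in 19% of the 27457 promoters given. Promoters were matched for 43 of the 55 genes, and those of Rims2, Snap25, Snap91, Syn3, Syt10, Syt12, Syt13, Syt17, Syt5, Syt7, Vamp3 and Vamp7 were not. TCAGCACC stood in 2 of the 43, Stx18 and Syt4, and TGACG in 12, among them Cplx1, Syn1, Vamp1 and Vamp2. The full cAMP response element TGACGTCA, which contains TGACG, stood in Syn1 and Vamp1 and in 1.7% of all promoters. The glucocorticoid half-site AGAACA stood in 4 of 43 (Stx1a, Stx5, Stxbp2 and Syt2) against 17.1% of all promoters, and its paired form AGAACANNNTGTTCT in 0 of 43 against 0.00364%. The heat shock element GAANNTTC stood in 1 of 43 (Stx18) against 7.02%, the AP-1 site TGANTCA in 0 against 6.36%, and the right part of RE1, GGACAGC, in 4 against 5.34%. The runs differed most in base composition: G and C made up 50.8% of that of Cplx2, 51.2% of Syt4, 64.8% of Snap23 and 72% of Sv2c. Over the 43 member promoters the median was 61.6%, against 52% for all promoters. Motif shares vary with base composition, and the shares above were not adjusted for it.

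The arrays were compared before the members were read. The median deposited signal per array ran from 67.03 to 127.4. The ratio of the beta-actin 3′ to 5′ probe signal, a measure of RNA integrity and labelling, was 2.30 (log2) in control rat 1 and between 1.06 and 1.81 in the others. The spike-in BioC gave 208.4 to 254.8 on 13 arrays and 793.0 to 898.2 on 3 (linalool rats 2 and 4, and rat 2 of the group with both). Of the hypothalamic markers, 9 of 11 genes (vasopressin, oxytocin, orexin and others) passed the filter, with a summed signal of 16603 to 26150 per rat. Neuronal markers passed in 10 of 10, with a summed signal of 27026 to 30699 in control, 28120 to 30946 in stress, 25841 to 29396 in linalool and 28325 to 29729 in rats with both, and 0 of 10 were called in each of the 7 comparisons by limma, with 0 to 2 at an unadjusted p under 0.05. Of 5 pituitary hormone genes 3 passed (Gh1 and Prl did not), and their summed signal spanned 207.7 to 6896 in control, 4519 to 6996 in stress, 2749 to 4306 in linalool and 2329 to 6012 in rats with both.

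Complexin 2 binds the assembled SNARE complex and sets how readily it fires. Cplx2 (1368584_a_at) read 7.71, 7.52, 7.80 and 7.59 in control rats 1 to 4, and 7.28, 7.25, 7.04 and 7.27 in stress rats. It read 7.76, 7.90, 7.44 and 7.64 in linalool rats and 8.01, 7.92, 7.62 and 7.96 in rats with both. All stress rats lay below all other rats, while the rats with linalool, restrained or not, overlapped the controls. Between restrained rats, those with linalool had 0.67 ± 0.11 (SE, n = 4 and 4) more than those without, with a 95% interval of 0.43 to 0.90 and an adjusted p of 0.0115. Of all probe sets tested 0.65% were called in this comparison (121 of 18625), and of the members 1 of 61. Restraint without odour gave a difference from control of -0.44 ± 0.11, with an adjusted p of 0.0748, and the interaction was 0.64 ± 0.16 with an adjusted p of 0.390. Over restrained and unrestrained rats together, linalool gave 0.35 more, with an adjusted p of 0.0537, which became 0.0378 with the beta-actin ratio in the model and 0.0375 without control rat 1. The called difference was 0.61 (adjusted p = 0.0520) without stress rat 3 and 0.65 (adjusted p = 0.0518) without rat 2 of the group with both. Over the 13 arrays with low BioC it was 0.65, with an adjusted p of 0.0749, and on the values as deposited 0.74, with an adjusted p of 0.156.

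Synapsin 2, which tethers vesicles to the reserve pool, had a probe set with the same order of groups. Syn2 (1369482_a_at) read 9.06, 9.36, 9.35 and 9.23 in control rats, 9.03, 9.20, 8.74 and 9.08 in stress rats, 9.45, 9.15, 9.39 and 9.37 in linalool rats and 9.27, 9.68, 9.48 and 9.37 in rats with both. The stress rats lay below all rats with both and overlapped the controls. The difference between restrained rats with and without linalool was 0.44 ± 0.11, with an adjusted p of 0.0966, and was not called. The other kept probe sets of Syn2 differed by -0.09 (1370431_at) and 0.00 (1382850_at) in the same comparison. Their correlation with the first over 16 rats was 0.14 and 0.49.

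SNAP-23 is the widely expressed relative of SNAP-25 and serves fusion at the plasma membrane in glia, endocrine and many other cells. Its probe set 1370194_at read 7.48, 7.60, 7.71 and 7.59 in control rats, 7.84, 7.72, 7.81 and 7.80 in stress rats, 7.53, 7.59, 7.51 and 7.48 in linalool rats, and 8.34, 7.97, 7.80 and 7.73 in rats with both. All 8 restrained rats lay above all 8 unrestrained rats, by a narrow margin at control rat 3 and stress rat 2, and rat 1 of the group with both stood highest. Averaged over both odour conditions, restrained rats had 0.31 ± 0.08 (SE, n = 8 and 8) more, with a 95% interval of 0.15 to 0.47 and an adjusted p of 0.0271. Of all probe sets 4.21% were called for this average stress effect (784 of 18625), against 1 of 61 members (1.64%). With the odour present in both groups the difference was 0.43, with an adjusted p of 0.0514, and without odour it was 0.20. The adjusted p moved to 0.0591 without stress rat 1, 0.0520 and 0.0558 without linalool rats 1 and 3, 0.0537 without rat 2 of the group with both and 0.106 over the 13 arrays with low BioC, while the difference stayed between 0.31 and 0.32. It was 0.29 (adjusted p = 0.0778) without control rats 1 and 2.

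The second probe set of Snap23 (1370195_at) read 7.84 to 8.17 in control, 7.84 to 8.25 in stress, 7.69 to 7.98 in linalool and 8.04 to 8.45 in rats with both. Restrained and unrestrained rats overlapped on it. Its average stress effect was 0.19 ± 0.08, with an adjusted p of 0.197, and its correlation with the first probe set over 16 rats was 0.71. Syntaxin 3, a partner of SNAP-23 at the plasma membrane, had an average stress effect of 0.21 ± 0.08 (1390447_at, adjusted p = 0.186). Its stress rats read 7.24, 7.21, 7.35 and 6.95 against 6.92, 6.95, 6.82 and 7.12 in control, and they overlapped. Some markers of glia and vessels fell in the same comparison: 2 of 7 microglial genes (P2ry12 by 1.00 and Cx3cr1 by 0.49 on the log2 scale), Opalin of oligodendrocytes (1 of 6) and Slco1a4 of endothelium (1 of 6). These lists did not move one way, since 3 of 7 microglial, 2 of 6 oligodendrocyte and 3 of 6 endothelial genes had positive changes, none of them called, such as 0.25 for C1qb and 0.40 for Flt1. Of the astrocyte genes 0 of 7 were called, while 6 had positive changes and 1 a negative one. Their median was 0.08, against -0.011 for all probe sets. With the odour present in both groups 7 of 7 astrocyte genes were higher in restrained rats, with a median of 0.18, and again 0 were called. The summed microglial signal was 2932 to 3028 in control, 2240 to 2934 in stress, 2589 to 3310 in linalool and 2556 to 4805 in rats with both. Their part in the SNAP-23 difference was not tested.

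Synaptotagmin 4 is a synaptotagmin with little calcium binding of its own, found on dense-core and other vesicles of neurons and endocrine cells. Syt4 (1387662_at) read 9.49, 10.00, 10.00 and 10.06 in control rats, 9.86, 9.99, 9.74 and 10.15 in stress rats, 10.36, 10.32, 10.54 and 10.26 in linalool rats and 10.22, 10.41, 10.33 and 10.33 in rats with both. All 8 linalool rats lay above all 8 rats without it, with stress rat 4 the nearest. Averaged over restrained and unrestrained rats, the linalool difference was 0.43 ± 0.09 (SE, n = 8 and 8), with a 95% interval of 0.25 to 0.61 and an adjusted p of 0.0320. Of all probe sets 0.714% were called for this effect (133 of 18625), and 1 of 61 members. In unrestrained rats the difference was 0.48 (adjusted p = 0.282) and in restrained rats 0.38 (adjusted p = 0.173). The other probe set (1375877_at) read 11.02 to 11.26 in control, 11.02 to 11.29 in stress, 11.11 to 11.32 in linalool and 11.14 to 11.43 in rats with both. The groups overlapped there, and its average linalool effect was 0.12 ± 0.06 with an adjusted p of 0.408. The correlation between the probe sets over 16 rats was 0.30.

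The Syt4 call was lost under more of the other settings than those of Cplx2 and Snap23. The difference stayed between 0.36 and 0.47 over 26 alternatives, and 12 of them kept the call. With the high-BioC arrays set as a block the adjusted p was 0.153, over the low-BioC arrays alone 0.202, and on the values as deposited 0.806. Leaving out 1 rat ended the call for stress rats 2 (0.0510) and 3 (0.0822), linalool rats 1 to 4 (0.0556, 0.0600, 0.0647 and 0.0553), and rats 2, 3 and 4 of the group with both (0.0770, 0.0619 and 0.0576). Among hypothalamic markers 1 of 9 was called in the same direction, Sst (somatostatin), with 0.37 and an adjusted p of 0.0421. The list as a whole leaned the same way: 8 of the 9 had positive changes and 1 a negative one. Their median was 0.17, against -0.0079 for all probe sets. Whether cells that release somatostatin, or a shift of the hypothalamic markers as a whole, had a part in the Syt4 difference was not tested.

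**Figure D1:**
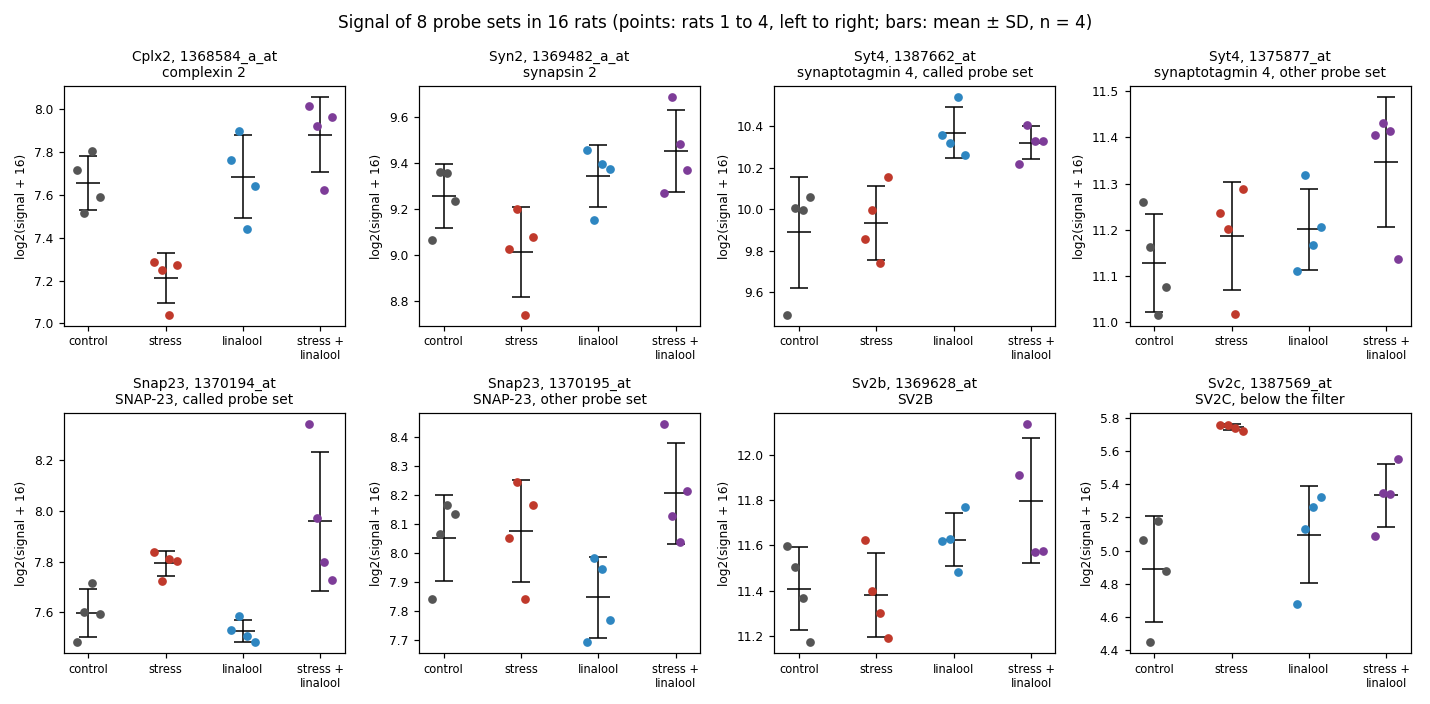
Signal of 8 probe sets in each rat, as log2(signal + 16) on the vertical axis of each panel, by group on the horizontal axis, with bars for the mean ± SD (n = 4). Cplx2 is low in the stress rats (7.04 to 7.28), Syt4 1387662_at is higher in both linalool groups, and Snap23 1370194_at is higher in both restrained groups, while the second probe sets of Syt4 and Snap23 overlap between groups.

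The neuronal fusion core showed no call with either treatment. SNAP-25, the target-membrane SNARE of synapses, read 12.81 to 13.05 in control, 12.84 to 12.96 in stress, 12.81 to 12.97 in linalool and 12.73 to 12.95 in rats with both. Its within-group SD was 0.085, close to the lowest of the members (0.083, Stx4), and its average changes were -0.02 with restraint (95% interval -0.13 to 0.10) and -0.01 with linalool (-0.13 to 0.10). Vamp2, the SNARE of the synaptic vesicle, read 11.06 to 11.86 in control and 10.86 to 11.42 in stress, and changed by -0.12 with restraint (-0.35 to 0.11) and -0.03 with linalool (-0.26 to 0.20). Syntaxin 1A, their partner, had intervals of -0.37 to 0.27 and -0.16 to 0.20 with restraint on its 2 probe sets, and of -0.18 to 0.46 and -0.31 to 0.05 with linalool. For Syt1, the calcium sensor of fast release, the intervals reached from -0.45 to 0.52 with restraint and from -0.51 to 0.46 with linalool. These data bound the Snap25 change tightly and the Syt1 change loosely.

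Most of the other SNAREs described here act outside the synapse, Vamp1 being an exception. Stx7 and Stx12, which serve endosomes, changed by -0.08 and -0.08 (1370192_at) with restraint and by 0.08 and -0.12 with linalool. The other Stx12 probe set (1384379_at) went the other way with restraint, by 0.13, and changed by -0.14 with linalool. Vamp1, a vesicle SNARE of fast-firing neurons, changed by 0.04 with restraint and -0.07 with linalool on 1373510_at, and by -0.03 and -0.12 on 1370556_at. Snap29, which serves autophagosome and endosome fusion, read 8.59 to 8.89 in control, 8.55 to 8.66 in stress, 8.34 to 8.67 in linalool and 8.52 to 8.97 in rats with both. Restraint with odour against odour alone gave 0.26 ± 0.10 for it (adjusted p = 0.216), with overlapping groups. Over the 14 kept syntaxin probe sets, Stx1a included, the average restraint change ran from -0.09 to 0.21. Their average linalool change ran from -0.15 to 0.17, with 0 called in each. Over the 9 VAMP probe sets, Vamp2 included, the same ranges were -0.12 to 0.04 and -0.12 to 0.21, again with 0 called.

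Among syntaxin-binding proteins and their relatives, Stxbp6 and Stxbp3 had the most negative average linalool changes. The 7 kept probe sets of this family ran from -0.49 to 0.18, with a median of -0.07 and 0 called. Stxbp6 (amisyn, an inhibitor of SNARE assembly) read 7.37, 8.23, 8.59 and 7.72 in control, 7.87, 7.81, 8.09 and 7.53 in stress, 7.68, 7.51, 7.74 and 7.30 in linalool and 7.34, 7.14, 7.06 and 7.52 in rats with both (1393409_at). Rats with both lay below all stress rats, and the linalool rats overlapped the controls. Its average linalool effect was -0.49 ± 0.15, with an adjusted p of 0.136, and it was called with the beta-actin ratio in the model (-0.51, adjusted p = 0.0414) and without control rat 1 (-0.59, adjusted p = 0.0269). The other Stxbp6 probe set (1372681_at) changed by -0.09, with an interval of -0.24 to 0.06. Stxbp3, which pairs with plasma-membrane syntaxins outside synapses, changed by -0.20 with linalool (adjusted p = 0.161).

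Among the other synaptotagmins no probe set was called. Syt5, found on dense-core vesicles, read 8.77 to 9.29 in control and 9.25 to 9.41 in linalool, a difference of 0.38 ± 0.13 with an adjusted p of 0.358. Syt12, which lacks calcium binding, read 7.34, 7.34, 7.00 and 6.77 in control and 6.76, 6.75, 6.82 and 6.45 in stress. Only stress rat 3 reached into the control range there, and the difference was -0.42 ± 0.16 with an adjusted p of 0.272. Sv2b, a vesicle membrane protein, read 11.17 to 11.60 in control, 11.19 to 11.62 in stress, 11.48 to 11.77 in linalool and 11.57 to 12.13 in rats with both (1369628_at). Its average linalool effect was 0.32 ± 0.09 (adjusted p = 0.136), against 0.17 on 1369627_at. Sv2a, its relative in nearly all synapses, changed by -0.14 with restraint (-0.29 to 0.02) and -0.11 with linalool (-0.27 to 0.04). For Syn1, the main synapsin of presynaptic terminals, the changes were -0.13 and -0.05 with restraint and 0.07 and 0.07 with linalool on its 2 probe sets. Rims1 and Rims2, the active-zone organisers, changed by 0.05 and -0.17 with restraint and by 0.13 and -0.10 with linalool. Cplx1 changed by -0.05 (1398357_at) and 0.02 (1369811_at) with restraint and by -0.17 and 0.08 with linalool. Snap91 (1373865_at) changed by -0.002 with restraint and -0.09 with linalool.

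**Figure D2:**
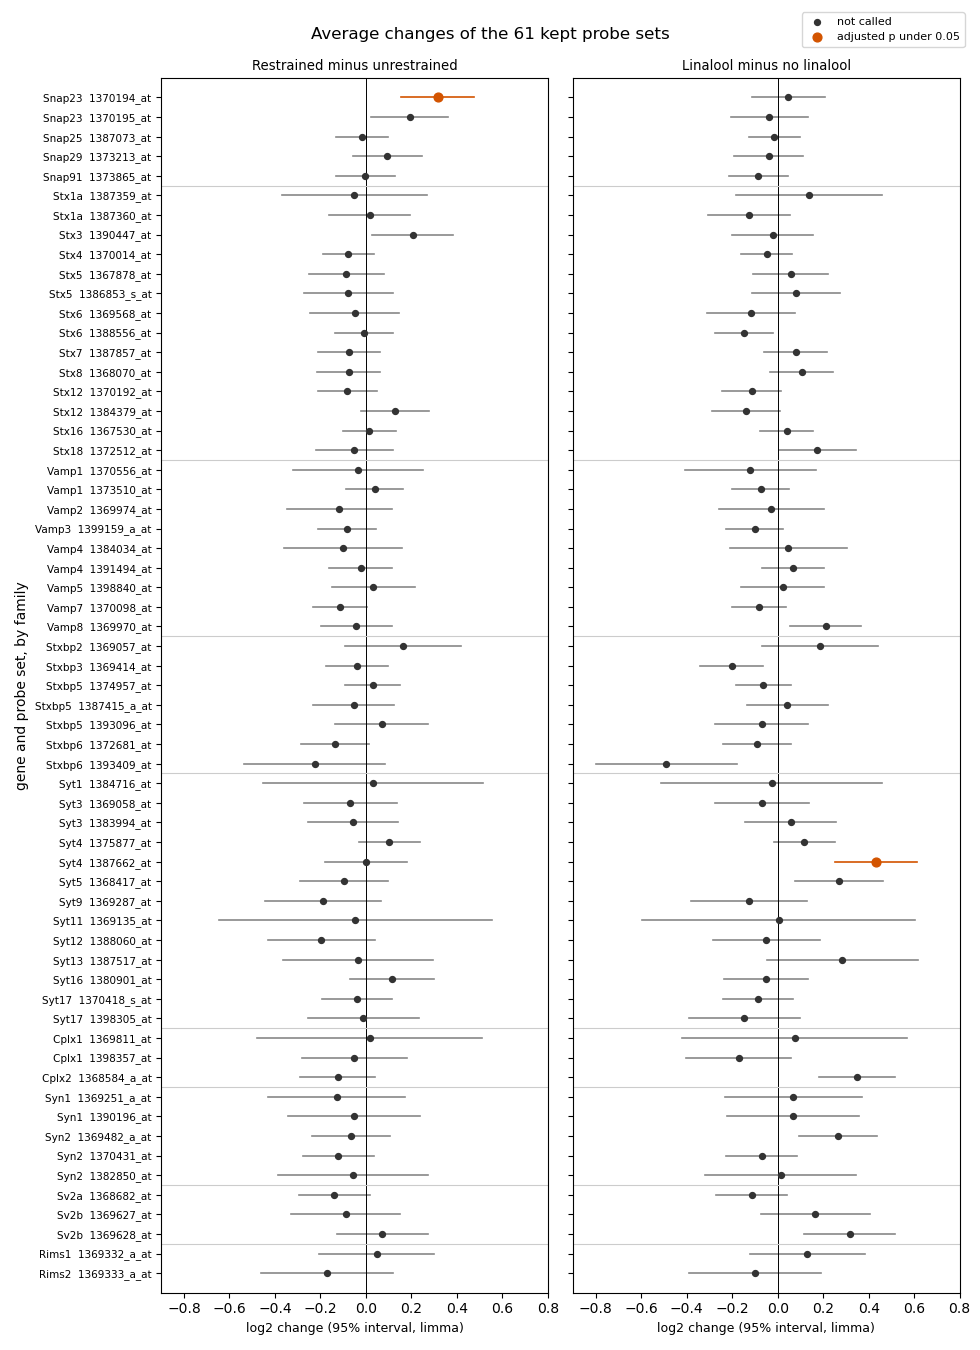
Average change with restraint (left) and with linalool (right) for each of the 61 kept probe sets, as a log2 difference on the horizontal axis with its 95% interval from limma, ordered by family on the vertical axis. Only Snap23 1370194_at (0.31) on the left and Syt4 1387662_at (0.43) on the right had an adjusted p under 0.05.

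Counts over all members stayed near or below those of all probe sets. In stress against control 0 of 61 members were called, against 0.902% of all probe sets, and 3 members (4.92%) had an unadjusted p under 0.05, against 12.6%. In linalool against control 0 members were called, as was 0% of all probe sets, and 2 members (3.28%) had an unadjusted p under 0.05, against 9.83%. With both against linalool alone 0 members were called against 1.69%, and 6 members (9.84%) against 16.2% had an unadjusted p under 0.05. With both against stress alone 9 members (14.8%) passed the unadjusted threshold against 12.6% of all. For the average effects the shares were 3 members (4.92%) against 18.9% with restraint and 10 (16.4%) against 14.8% with linalool. The interaction, which asks whether linalool altered the change with restraint, called 0 members and 0% of all probe sets, with 4 members (6.56%) against 7.99% at an unadjusted p under 0.05. These comparisons share groups of rats and are not independent of each other.

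Most member changes were small. For the average restraint change 60 of 61 lay within 0.25 of 0 (all but Snap23 1370194_at), and for the average linalool change 54 did. The median member change with restraint was -0.050, against -0.011 for all probe sets, and 43 of 61 lay below 0 against 53.2% of all. That direction depends on scaling: on the values as deposited all probe sets shifted by 0.21 and 0 of 61 members lay below 0, although the members' median stayed 0.031 under that of all, against 0.039 after quantile normalization. With linalool the median member change was -0.022, against -0.0079 for all. Relative to the shift of all probe sets the called differences stayed close to the main values under both other scalings: 0.69 and 0.69 for Cplx2, 0.33 and 0.33 for Snap23, and 0.43 and 0.43 for Syt4.

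Members differed among themselves in how steady they were between rats. The median within-group SD was 0.173, against 0.172 for all probe sets tested, and ran up to 0.646 for Syt11, a synaptotagmin without calcium binding. Syt11 (1369135_at) read 6.99, 9.79, 7.55 and 8.40 in control rats but 7.75 to 8.42 over the rats of the other groups. Control rats 1 and 2 formed the ends of that range, and did so for several members. Cplx1, the complexin of fast synapses, read 7.65 in control rat 1 and 9.78 in control rat 2 (1369811_at), with all other rats from 8.38 to 9.52. Syn1 (1390196_at) read 9.89 and 11.01 in the same rats, with the others from 9.92 to 10.77. Syt1 (1384716_at) read 7.30 in control rat 1 and 8.36 to 9.56 in the others.

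Of these members Cplx1 and Syt1 moved with the beta-actin ratio, a slope fitted by limma after seeing the data within the group-means model. The slopes of Syt11 (adjusted p = 0.251) and Syn1 (0.192 and 0.273 on its 2 probe sets) were not called. Of the 61 members 9 were lower with a higher ratio and 0 higher at an adjusted p under 0.05, against 5.06% of all probe sets that were lower. The slopes, in log2 units per unit of the log2 ratio, were -1.68 for Syt1 (adjusted p = 1.54e-05), -1.44 and -0.58 for the Cplx1 probe sets, -1.01 for Syn2 (1382850_at), -0.97 for Syt13, -0.84 for Vamp1 (1370556_at), -0.70 for Syt9, -0.52 for Stx6 (1369568_at) and -0.45 for Syt4 (1387662_at). Without control rat 1 the calls were lost, with 0 of 61 members and 0.0161% of all probe sets called, while the SEs of these 9 slopes, 0.12 to 0.28 over all arrays, became 0.23 to 0.54. All 9 slopes stayed negative, but they had been selected as negative with the other arrays included, so the kept sign says little. Over all 61 members 35 slopes were negative and 26 positive without that rat, against 41 and 20 over all arrays. Of the 9 selected, the slopes without that rat were -1.48 for Syt1 (adjusted p = 0.0992), -1.11 and -1.04 for Cplx1, -1.49 for Syt13, -0.89 for Vamp1 and -0.71 for Syt9. The slopes of Syn2 (-0.59), Stx6 (-0.26) and Syt4 (-0.26) were nearer to 0. With the ratio in the model the Cplx2, Snap23 and Syt4 differences were 0.68, 0.31 and 0.42, and all 3 kept their calls.

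**Figure D3:**
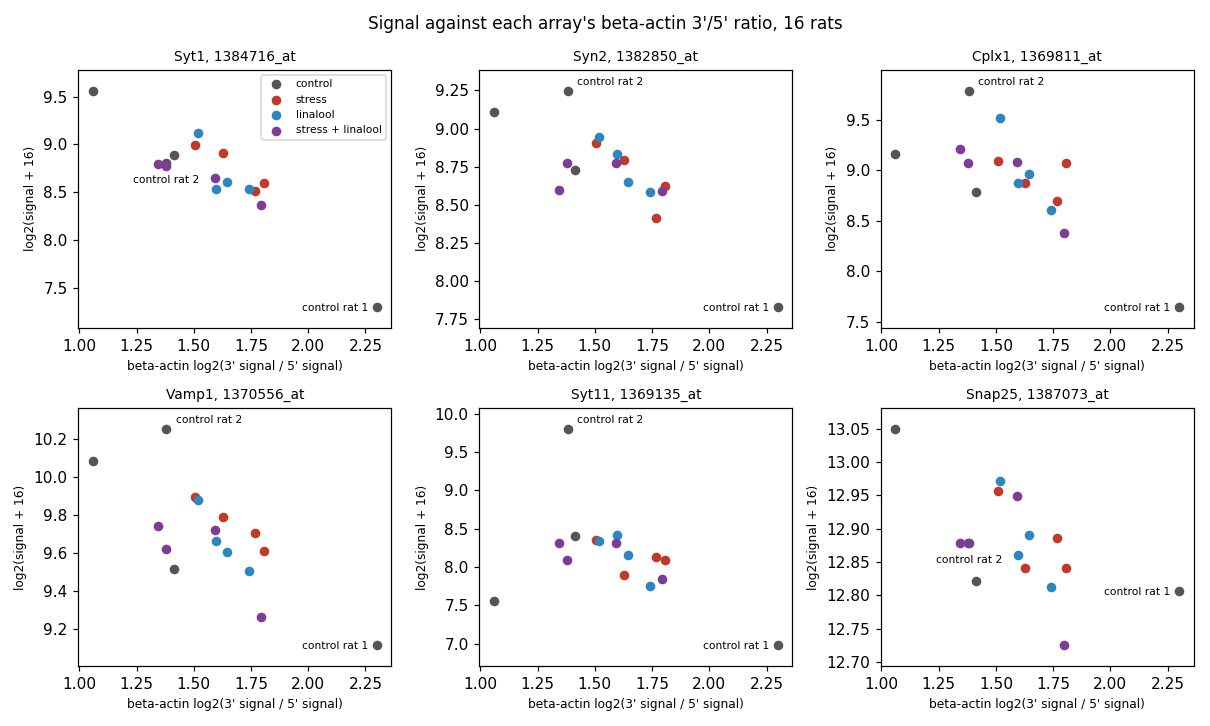
Log2(signal + 16) of 6 probe sets on the vertical axes against the beta-actin log2 ratio of 3′ to 5′ signal of the same array on the horizontal axes, 1 point per rat, coloured by group. Control rat 1 stands alone at a ratio of 2.30 and is lowest for Syt1 (7.30), Cplx1 (7.65) and Syt11 (6.99), while Snap25 spans only 12.73 to 13.05. The slopes of Syt11 and Snap25 on the ratio were not called.

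Where a gene had several kept probe sets they often disagreed. The 16 such genes gave 20 pairs, whose correlation over the 16 rats ran from -0.38 for Stx12 to 0.79 for Syn1, with a median of 0.32. It was over 0.5 in 6 pairs and under 0 in 4. The points share arrays and their normalization, so these values are descriptions. Cplx2 had a single member probe set, so no second reading of that gene was available.

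Members under the filter were read separately, in a fit with no filter, since 12 genes had no kept probe set (Cplx3, Rims3, Stx11, Stx17, Sv2c, Syn3, Syt10, Syt15, Syt2, Syt6, Syt7 and Syt8). Sv2c, the SV2 form of a restricted set of neurons including those of the basal ganglia, was singled out after its values were seen. It read 5.06, 4.45, 5.18 and 4.88 in control rats, 5.76, 5.76, 5.74 and 5.72 in stress rats, 4.68, 5.13, 5.26 and 5.32 in linalool rats and 5.09, 5.35, 5.34 and 5.56 in rats with both (1387569_at). All stress rats lay above all other rats. The difference from control was 0.85 ± 0.16 with an adjusted p of 0.0342 over 31042 probe sets, of which 0.329% were called. The average stress effect was 0.54 ± 0.11 (adjusted p = 0.0241), with 1.68% of all called, and Sv2c was the one member called in each of these fits. Syn3, the third synapsin, was likewise dim and read 4.24 to 4.51 in rats with both against 4.90 to 5.57 in linalool rats, without overlap. Its difference was -0.92 ± 0.20, with an adjusted p of 0.0540.

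The partners of these families were read from 5 lists that hold other genes of vesicle release: priming and tethering factors, active zone scaffolds, vesicle membrane and loading proteins, vesicle recovery proteins, and other SNAREs with their regulators. Of their genes 61 passed the filter, and each was represented by its brightest probe set. None rose or fell at limma's adjusted p under 0.05 in 6 of the 7 comparisons, where 0% to 4.21% of all probe sets were called. At an unadjusted p under 0.05 there were 4 to 9 of the 61 genes in each, against 7.99% to 18.9% of all probe sets. For the average linalool effect 1 of 61 fell and 0 rose, with 0.714% of all probe sets called. This was Napb, the beta form of the SNAP adaptor that helps take used SNARE complexes apart. It was lower by 0.21 (change -0.21 ± 0.05, adjusted p = 0.0441). The median change over the 61 was -0.018 with linalool, against -0.0079 for all probe sets, and -0.031 with restraint, against -0.011. Pacsin1, a membrane-bending protein of vesicle recovery, had a difference of 0.45 ± 0.10 between restrained rats with and without linalool (adjusted p = 0.0664) and of -0.40 ± 0.10 between stress and control (adjusted p = 0.0900). Cadps, which primes dense-core vesicles, changed by -0.16 with linalool (adjusted p = 0.117).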

How the data were processed

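Signal intensity of 31099 probe sets was measured on 16 arrays, 1 per rat, in 4 groups of 4 taken from the titles. RNA was extracted with TRIzol and a column kit, per the labels' protocols. The authors deposited linear intensity values, made with MAS5 per the submitters' processing notes. MAS5 combines perfect-match and mismatch probes, with a scaling not stated in the sources used. The design had assumed comparable arrays, but medians differed, so values were quantile-normalized, raised by 16 and taken as log2. This removes any change shared by most transcripts. Control probe sets (57) were left out, and names came from the platform table, with 1 symbol for 20826 probe sets, several for 436 and none for 9780.

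One group-means model was fitted in R 4.3.3 by limma 3.58.1, with moderated two-sided tests on 12 residual degrees of freedom. Intervals used the moderated spread, and the fit was tested on simulated data. The 7 comparisons were those between groups that differ by 1 treatment, the 2 average effects and the interaction. P-values measure the spread between rats, and arrays have no read depth, so their number limits the precision. Members were chosen for naming where they were called in a comparison or among the 3 with the smallest p elsewhere. The 2 brightest of each family and fixed core genes were added. Not all of these, nor all of their other probe sets, are described. Of the pathway lists up to 4 called genes per comparison were named. Members, lists and tests were chosen with earlier results of these data known. Genes outside this rule (Pacsin1, Cadps, Syt11, Syt16, Sv2c, Syn3 and those with a beta-actin slope) were named after their values were seen. Replicate numbers are not stated to pair rats, so the main model used no pairing. Same-numbered rats in different groups had correlations of their deviations from -0.16 to 0.23 over 24 pairs. These values cannot show whether rats were handled in numbered sets. Alternatives covered scaling, pseudocounts of 1 and 64, the filter, BioC, the beta-actin ratio, the replicate block and each rat left out.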

Additional observations from a re-analysis of the deposited data

Results flagged for a closer look

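In some groups of 4 rats a single value lay far from the other 3 by Dixon's test, which chance gives in about 1 of 20 groups. This occurred in 9 of 128 groups tested, over 32 probe sets. In control rats it was Stx1a 1387359_at in rat 1 (6.28, the others 7.04 to 7.19), Syt4 1387662_at in rat 1 (9.49, the others 10.00 to 10.06) and Vamp2 1369974_at in rat 2 (11.86, the others 11.06 to 11.08). In stress rats it was Cplx2 in rat 3 (7.04, the others 7.25 to 7.28) and Syt12 in rat 4 (6.45, the others 6.75 to 6.82). In linalool rats it was Syt1 in rat 1 (9.12, the others 8.53 to 8.60). In rats with both it was Cplx1 1369811_at in rat 1 (8.38, the others 9.07 to 9.21), Sv2a in rat 2 (10.60, the others 10.23 to 10.26) and Syt4 1375877_at in rat 4 (11.14, the others 11.41 to 11.43).

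Sv2c lay under the filter on dim probe sets and showed a difference there, of 0.85 between stress and control and of 0.54 for the average stress effect, when all 31042 probe sets were fitted.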

How the results depend on the processing

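Of 1690 values of named members under the alternatives, 1566 kept their direction and side of the threshold, 25 lost a call, 13 gained one, 86 changed sign with no call on either side and 0 reversed a call. The replicate block left the members called as they were, with adjusted p of 0.0140 for Cplx2, 0.0424 for Snap23 and 0.0412 for Syt4, and 5 of 16 rats correlated best with a rat of their own number. Over all alternatives the adjusted p ran from 0.0060 to 0.156 for Cplx2 (22 of 26 kept the call), from 0.0123 to 0.106 for Snap23 (19 of 26) and from 0.0045 to 0.806 for Syt4 (12 of 26).

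On the values as deposited 0 members were called for both treatments against stress, 3 for both against linalool (both Snap23 probe sets and Snap29) and 0 for the average linalool effect. For both against linalool the median of all probe sets was shifted by 0.32 on those values, and only 3.36% lay below 0. The Snap23 difference there (1370194_at) was 0.78, and 0.46 relative to that shift. The share of all probe sets called on those values is not given here. Scaling to a common median left 0 for the average linalool effect. With no filter 1 was called for stress against control (Sv2c), 0 for the average linalool effect, and 1 for the average stress effect, Sv2c in place of Snap23 (adjusted p = 0.0583). BioC as a block gave 1 for both against linalool (Syt16) and 0 for the average linalool effect. The low-BioC arrays gave 0 for both against stress, 0 for the average stress effect and 0 for the average linalool effect. The beta-actin ratio as a covariate gave 1 for both against linalool (Snap23) and 3 for the average linalool effect (Cplx2, Stxbp6 and Syt4). Without control rats 1 and 2 the average stress effect had 0. Leaving out 1 rat gave 0 to 1 for both against stress, both against linalool and the average stress effect, and 0 to 3 for the average linalool effect. The 9 members called for a beta-actin slope became 0 without control rat 1. Their slopes were then -1.49 to -0.26 with larger SEs, in members that had been selected as negative over all arrays. The causes were not tested. Members near the filter are dim, and their changes are understated by the pseudocount.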
